A study of Homo sapiens with 12 samples.

Results

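The 7 small RNA entries described here are hsa-miR-1246, hsa-miR-4454, hsa-miR-3609, hsa-miR-7974, hsa-miR-10395-3p, hsa-miR-1268a and hsa-miR-1248, out of 1451 features in the small RNA count table, of which 1380 have human miRNA names. They are listed under miRNA names but may be pieces of other structured RNAs. They were picked by name, and the measured read counts of the bufotalin and control libraries were in view when they were chosen. Their values in that contrast are therefore a description and carry no p-value. The 2 groups were tumours of Hep3B, a human hepatocellular carcinoma line, labelled as xenografts. There were 3 libraries treated with bufotalin, a cardiotonic steroid of toad venom, and 3 control libraries. Total RNA had 3 further libraries of each group. The series title speaks of cells and the labels of xenografts; the dose, time, host strain, what the control group received and whether host reads were removed are not given in the sources used here. All libraries share 1 cell line. Nothing in the labels ties the replicates to different animals; p-values below therefore cover only the variation among these libraries, part or all of which may be technical.

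A canonical miRNA is cut from a hairpin precursor by Drosha and Dicer and loaded into an Argonaute protein, where bases 2 to 8, the seed, pair with target mRNAs. Abundant structured RNAs, such as transfer RNAs (tRNAs), small nuclear RNAs (snRNAs) of the spliceosome and small nucleolar RNAs (snoRNAs) that guide RNA modification, also give short pieces that are sequenced and counted in the same libraries. Reads named miR-1246 have been traced in human cells to U2 snRNA, and the miR-4454 sequence closely resembles the 3′ end of a histidine tRNA. A table of counts per name cannot tell a piece of such an RNA from the product of the annotated hairpin.

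Mature sequences in RefSeq (GRCh38.p14) were matched for 5 of the 7 entries. They are shown for their ends, lengths and composition, and capitals mark the seed. The entries were picked as possible pieces of structured RNAs, a view that may itself rest on such traits. These traits, and the overlaps and folding given below, are therefore a description and not an independent test.
hsa-miR-1246: aAUGGAUUuuuggagcagg
hsa-miR-4454: gGAUCCGAgucacggcacca
hsa-miR-7974: aGGCUGUGaugcucuccugagccc
hsa-miR-1268a: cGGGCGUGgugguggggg
hsa-miR-1248: aCCUUCUUguauaagcacugugcuaaa
All 5 seeds differ from each other, and no other measured miRNA with a sequence has any of them. The entries were 18 to 27 bases long, and 0 of 5 lay within 21 to 23 bases, the lengths of 1083 of the 1226 other measured miRNAs with a sequence (88.3%). The sequence of miR-4454 ends in CCA, the 3 bases that every mature tRNA carries at its 3′ end, as do 17 of the 1226 others. G and C made up 37.0% of miR-1248 and 83.3% of miR-1268a, the lowest and highest of the 5, against a median of 50.0% over the others. These lengths and letters are those of the annotation; read lengths were not analysed here.

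**Figure D1:**
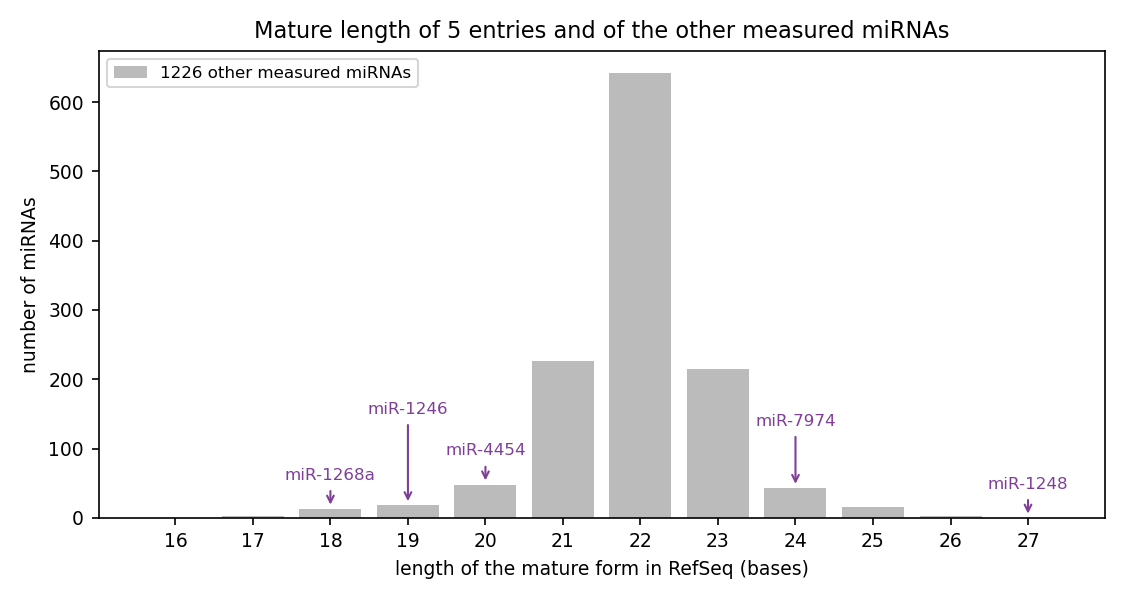
Length in bases of the RefSeq mature form (x axis) against the number of miRNAs (y axis) for 1226 measured miRNAs (grey bars), with arrows at the 5 entries that have a sequence. The entries stand at 18, 19, 20, 24 and 27 bases, on either side of the 21 to 23 bases that hold 88.3% of the others.

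The annotation places several precursors in or beside other genes. The miR-1248 precursor (chr3:186786672-186786777, plus strand) lies in EIF4A2, which encodes an RNA helicase of translation initiation, and shares 102 of its 106 bases with SNORA81, a snoRNA gene. The precursor is shown because 26 of the 27 mature bases are also bases of the snoRNA gene; capitals mark what it shares with SNORA81.
MIR1248: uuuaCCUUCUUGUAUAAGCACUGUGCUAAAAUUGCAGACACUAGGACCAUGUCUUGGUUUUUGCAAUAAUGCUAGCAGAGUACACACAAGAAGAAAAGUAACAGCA
The miR-3609 precursor (chr7:98881650-98881729) lies in TRRAP, a scaffold of histone acetyltransferase complexes, and shares 33 of its 80 bases with SCARNA28, a small Cajal body RNA gene. The miR-7974 precursor (chr19:11495544-11495622) lies in ZNF653, a zinc finger gene. The precursors of miR-1246 (chr2:176600980-176601052), miR-4454 (chr4:163093574-163093628) and miR-1268a (chr15:22225278-22225329) overlap no other gene in the RefSeq gene table.

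The annotated hairpins of 3 entries could be folded by computer. The miR-1246 hairpin, with the mature bases in capitals, is the least stable per base of these 3.
MIR1246: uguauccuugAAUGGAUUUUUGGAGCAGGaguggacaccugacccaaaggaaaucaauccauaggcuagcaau
Its lowest folding energy was -0.255 kcal/mol per base, and 98.7% of 778 folded hairpins of measured miRNAs were at least as stable. The miR-7974 hairpin had -0.299 and the miR-1248 hairpin -0.325 kcal/mol per base, against a median of -0.462 over the 778 hairpins. All 3 thus lie among the weakly folded hairpins of the measured set; 91.1% or more of the hairpins were at or below each of them.

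The small RNA libraries held 1869893 to 3339624 counts in the bufotalin group and 2034422 to 4197636 in the control group, so that 3 counts, the floor used for a count of 0, equal 0.715 to 1.60 CPM (counts scaled to the same total in each library). Without molecular identifiers, reads are not independent molecules, and the intervals and floors given here hold counting error alone. Marker miRNAs set 1 library apart: the summed erythroid markers (4 of 4 measured, led by miR-451a and miR-486-5p) reached 38609 CPM in bufotalin replicate 2, against 360.4 and 585 CPM in the other bufotalin libraries and 341 to 505 CPM in control libraries. Leukocyte markers (5 of 5) were also highest there, at 246 CPM against 9.81 to 16.6 CPM in the other 5 libraries. Fibroblast and smooth muscle markers (6 of 6) summed to 708 to 754 CPM in bufotalin and 125 to 547 CPM in control libraries, lowest in control replicate 3, and endothelial markers (2 of 2) to 1599.6 to 1980 CPM in bufotalin and 2018 to 2240.4 CPM in control libraries. Skeletal muscle markers (3 of 4 measured) summed to 57.8 to 421 CPM in bufotalin and 50.6 to 90.8 CPM in control libraries. Of these, miR-206 was only at 0 to 1.4 CPM in bufotalin and 0 to 0.974 CPM in control libraries. Hepatocyte and liver tumour miRNAs (5 of 5 listed in the table) summed to 1612 to 2066 CPM in bufotalin and 881 to 1617 CPM in control libraries. Most of each sum was miR-192-5p, at 1302 to 1524 CPM in bufotalin and 642 to 1057 CPM in control libraries. miR-122-5p was at only 15.4 to 36.4 CPM in bufotalin and 23.3 to 116 CPM in control libraries. A sum that rests mostly on 1 miRNA does not test the liver label. The mRNA table lists only genes the authors selected as different, so hepatocyte genes in it do not test the label. Of these marker miRNAs 14 passed the filter on low counts and 0 were called by edgeR (4 at an unadjusted p under 0.05, all higher in bufotalin; DESeq2 called miR-192-5p and miR-1-3p), and the part of other cells in the results was not tested. Values without bufotalin replicate 2 stand beside the results below.

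Bufotalin libraries had more miR-1246, miR-3609 and miR-10395-3p and less miR-4454, miR-7974 and miR-1268a than control libraries, while the miR-1248 groups overlapped. By the quasi-likelihood test of edgeR, with p-values adjusted by Benjamini-Hochberg over 477 features, 6 of the 7 entries were called at an adjusted p under 0.05, 3 higher and 3 lower. The background was 27 of 477 features called, or 5.66%, with 2.1% higher and 3.56% lower in bufotalin; because this contrast was used to choose the entries, nothing is read from their share. Groups did not overlap in CPM for 6 of the 7, against 27.3% of the features tested. The median log2 fold change was 0.07 over the 7 entries and -0.04 over all features. All 7 passed the filter on low counts, but miR-3609 passed only through the bufotalin group and miR-1268a only through the control group. These 2 therefore had to differ. miR-10395-3p also passed only through the bufotalin group, as control replicates 2 and 3 had 7 and 1 counts. With library totals in place of TMM scaling, the median of all features moved to -0.20, and of 21 features called 23.8% were higher in bufotalin, against 37.0% with TMM. In bulk tumours, fewer cells of a type and less RNA per cell cannot be told apart.

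**Figure D2:**
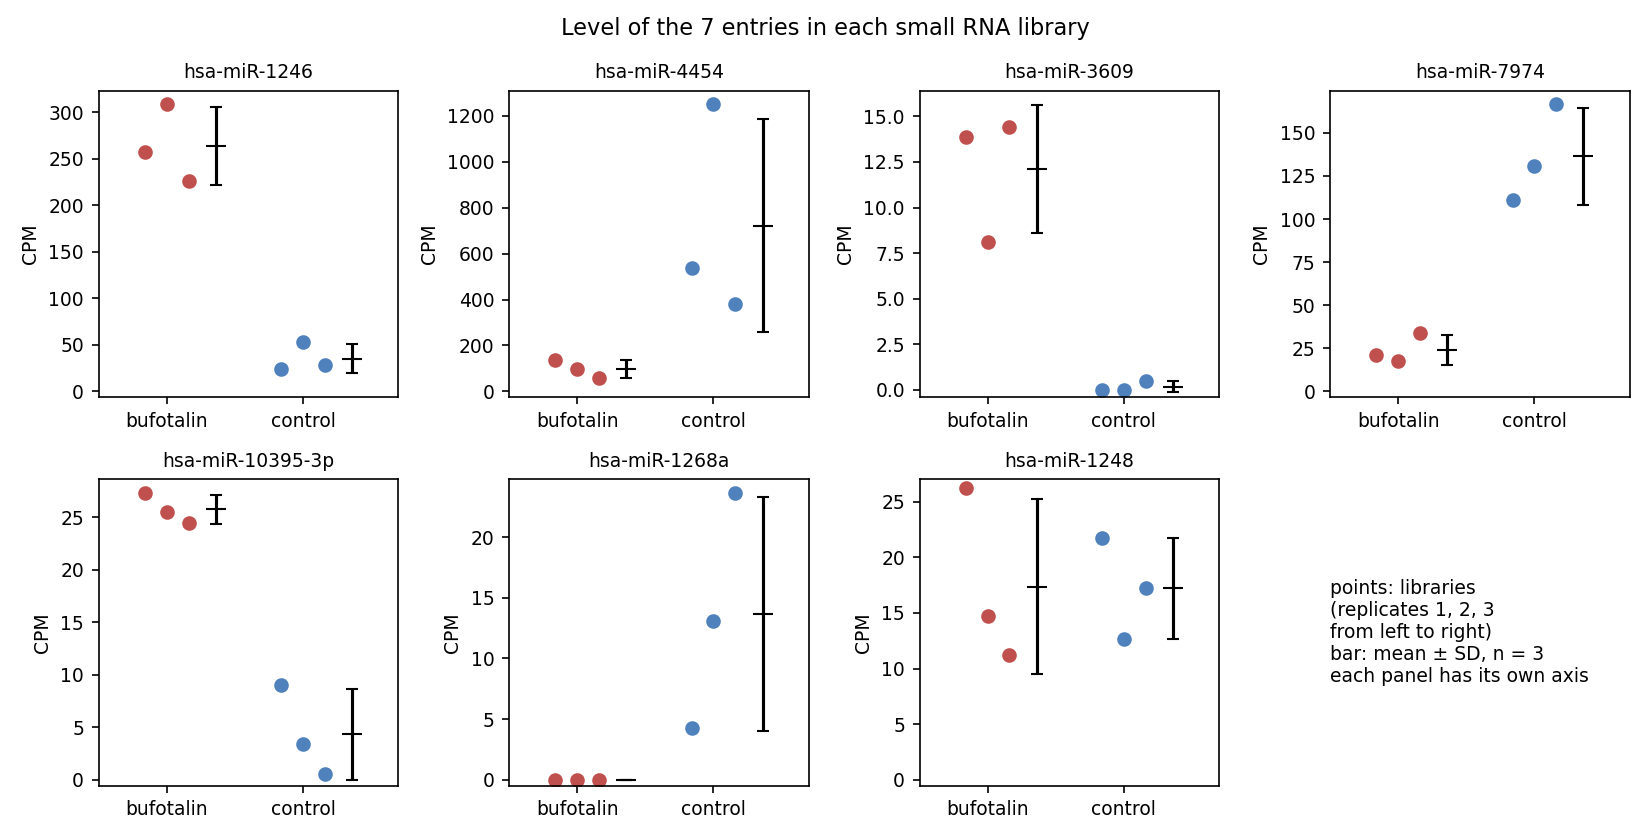
CPM (y axis, linear, its own scale in each panel) of each entry in the 3 bufotalin and 3 control small RNA libraries; points are libraries and bars mean ± SD. For 6 entries no bufotalin library overlaps a control library, and for miR-1248 the groups overlap.

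miR-1246 was measured at 257, 309 and 226 CPM in bufotalin replicates 1, 2 and 3 and at 24.1, 53.1 and 28.5 CPM in control replicates 1, 2 and 3. Every bufotalin library lay above every control library, and the lowest bufotalin value was 4.25 times the highest control value. The means were 264 ± 42.2 CPM in bufotalin and 35.2 ± 15.6 CPM in control libraries (SD, n = 3 each), with a log2 fold change of 3.10 (SE 0.34). Among the features of its own library it ranked 127 to 137 in bufotalin and 257 to 288 in control. Without bufotalin replicate 2 the log2 fold change was 3.01, and it lay between 2.90 and 3.24 under the alternatives. An annotated relative, miR-1290, differs from it by 1 base over the part where the 2 sequences align, with overhanging ends not compared. It is not listed in the table.

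miR-4454 moved the other way. It had 135, 98.8 and 59.5 CPM in bufotalin and 537, 1251 and 379 CPM in control libraries. No bufotalin library reached the lowest control library, and control replicate 2 was the highest by far. Means were 97.7 ± 37.6 CPM in bufotalin and 723 ± 465 CPM in control libraries (SD, n = 3 each), a log2 fold change of -2.67 (SE 0.38). The value was -2.66 without bufotalin replicate 2 and -2.32 without control replicate 2. miR-7975 differs from miR-4454 by 1 base over the part that aligns, with overhanging ends not compared, and is not listed in the table.

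The ratio of these 2 entries within a library does not depend on the library total. There were 1.9, 3.13 and 3.79 counts of miR-1246 for each count of miR-4454 in bufotalin libraries, and 0.0448, 0.0424 and 0.0751 in control libraries. miR-1246 was the more abundant of the pair in all bufotalin libraries and the less abundant in all control libraries. The 7 entries together made up 0.0369% to 0.048% of bufotalin libraries and 0.0616% to 0.147% of control libraries, of which miR-1246 and miR-4454 held 77.2% to 86.1% in bufotalin and 66.2% to 89.0% in control.

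miR-3609 was counted 26, 27 and 41 times in bufotalin libraries and 0, 0 and 1 time in control libraries. These counts equal 13.9, 8.08 and 14.4 CPM in bufotalin and 0, 0 and 0.492 CPM in control. All bufotalin libraries were above all control libraries. With 94 pooled counts in bufotalin and 1 in control, the ratio of pooled shares was 96.6, with a 95% exact counting interval of 16.9 to 3855; its size rests on a single read of control replicate 3. Its fitted fold change depends on the prior count and is not given as a size. Bufotalin replicate 2 was the lowest of its group, and without it the bufotalin values are 13.9 and 14.4 CPM.

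miR-10395-3p was nearly constant in bufotalin libraries, at 27.3, 25.5 and 24.5 CPM, and was at 9.05, 3.41 and 0.492 CPM in control libraries. The spread lay in the control group, where it was counted 38, 7 and 1 times. This entry passed the filter on low counts only through the bufotalin group, so its fold change and call are only a description. Means were 25.7 ± 1.40 CPM in bufotalin and 4.32 ± 4.35 CPM in control (SD, n = 3 each), a log2 fold change of 2.64 (SE 0.62). The size depended on control replicate 1, without which it was 3.94. The entry was no longer called with library totals, nor after leaving out any bufotalin library or control replicate 2; without bufotalin replicate 2 the log2 fold change was 2.68.

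miR-7974 had 20.9, 17.4 and 34.0 CPM in bufotalin and 111, 131 and 167 CPM in control libraries. The highest bufotalin library stayed below the lowest control library by a factor of 3.27. Means were 24.1 ± 8.76 CPM in bufotalin and 136 ± 28.0 CPM in control (SD, n = 3 each), a log2 fold change of -2.35 (SE 0.45). It was not called without bufotalin replicate 1 (-2.21) or without bufotalin replicate 2 (-2.13).

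miR-1268a was not counted in any bufotalin library, where 3 counts would be 1.60, 0.898 and 1.05 CPM. Control libraries had 18, 27 and 48 counts, or 4.29, 13.1 and 23.6 CPM. Set against the mean floor of 1.18 CPM over the bufotalin libraries, the control mean of 13.7 CPM made it at least 11.5-fold lower in bufotalin. This bound leaves out the spread of the control libraries (SD 9.66 CPM). The bound was 7.36-fold without control replicate 3. Without bufotalin replicate 2 the other bufotalin libraries are still at a count of 0. miR-1268a was not called without bufotalin replicate 3. The miR-1268b sequence holds that of miR-1268a, and it is not listed in the table.

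miR-1248 had 26.2, 14.7 and 11.2 CPM in bufotalin and 21.7, 12.7 and 17.2 CPM in control libraries. The groups overlapped throughout, with means of 17.4 ± 7.85 CPM in bufotalin and 17.2 ± 4.51 CPM in control (SD, n = 3 each). The log2 fold change was 0.07 (SE 0.43), 0.19 without bufotalin replicate 2, and lay between -0.27 and 0.25 under the alternatives. With this spread between libraries, the values do not show that its level was the same in both groups.

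The order of the entries differed between the groups. In bufotalin libraries miR-1246 stood first and miR-4454 after it, without overlap, followed by miR-10395-3p, miR-7974, miR-1248 and miR-3609, whose neighbours overlapped in that order, and miR-1268a at 0. In control libraries miR-4454, miR-7974, miR-1246 and miR-1248 followed each other without overlap, miR-1248 overlapped miR-1268a and miR-1268a overlapped miR-10395-3p, and miR-3609 came last. CPM has no length correction, and each count is 1 read of a small RNA.

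**Figure D3:**
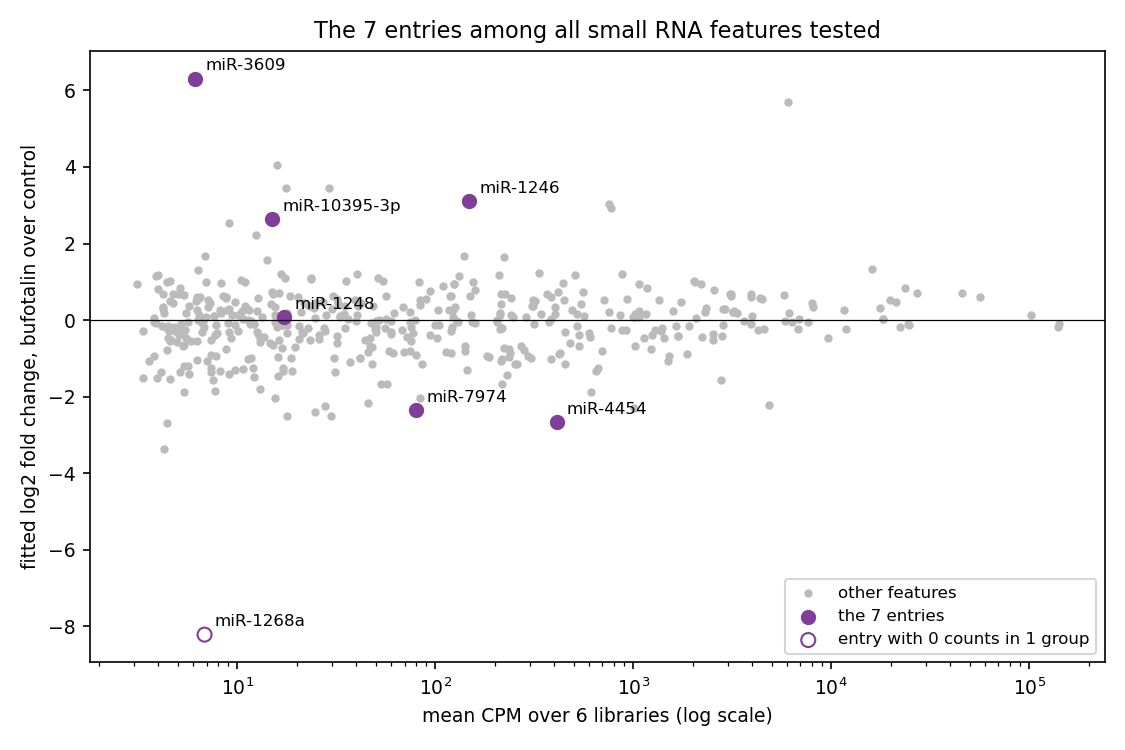
Log2 fold change (y axis, bufotalin over control, as fitted) against mean CPM over the 6 libraries (x axis, log scale) for 477 features, with the 7 entries in purple. miR-1246 and miR-4454 lie at 3.10 and -2.67, and miR-1248 lies at 0.07; the open circle is miR-1268a, with 0 counts in bufotalin, and its height and that of miR-3609 depend on the prior count.

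**Figure D4:**
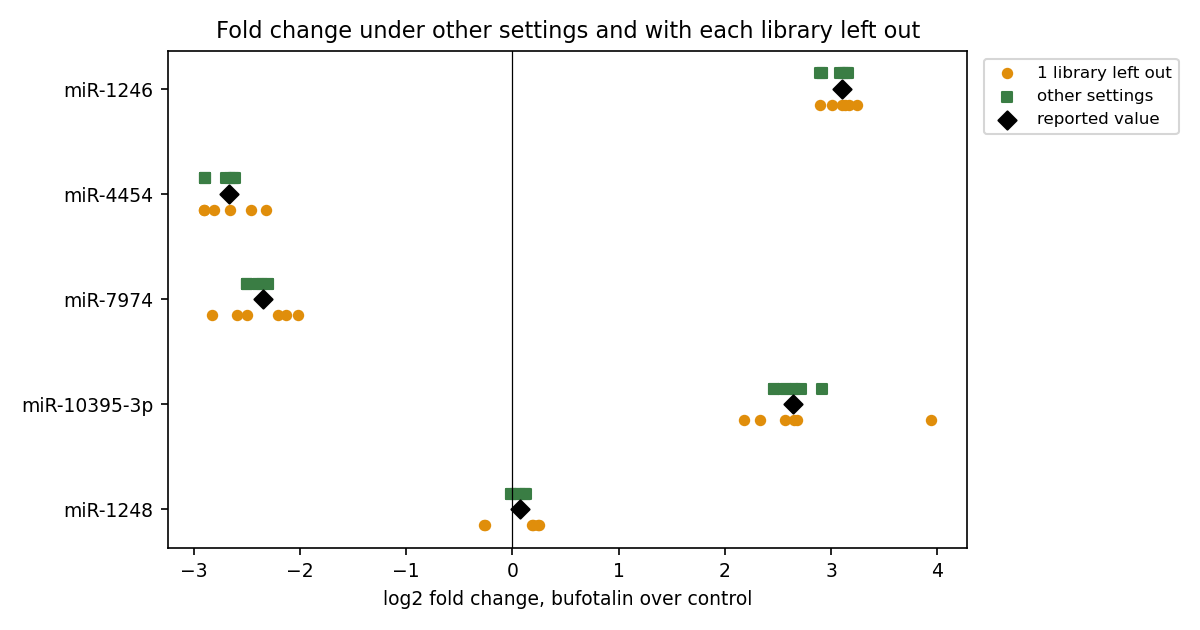
Log2 fold change of bufotalin over control (x axis) for 5 entries as reported (diamonds), with 1 library left out (circles) and under other settings (squares). miR-1246 stays between 2.90 and 3.24 and miR-4454 between -2.90 and -2.32, while miR-10395-3p reaches 3.94 without control replicate 1.

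Other features with similar levels across the 6 libraries were found by the root mean square (RMS) difference of centred log2(CPM + 1), among the 365 or 366 features that averaged 10 CPM or more. The predicted feature novel_633 was closest to miR-1246 (0.43), to miR-3609 (0.38) and to miR-10395-3p (0.78). It had 28.3, 26.4 and 34.7 CPM in bufotalin and 2.14, 2.43 and 1.47 CPM in control libraries. For miR-1246 the next were miR-147b-3p (0.65) and miR-146b-5p (0.91), and for miR-3609 they were miR-1246 (0.63) and miR-147b-3p (0.98). For miR-10395-3p they were miR-143-3p (0.85), a smooth muscle and fibroblast marker that was lowest in control replicate 3, and miR-27a-3p (0.91).

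Among the entries that were lower in bufotalin, miR-4454 was closest to miR-874-3p (0.44), miR-935 (0.49) and miR-671-5p (0.52). miR-7974 was closest to miR-425-5p (0.33), miR-1247-3p (0.49) and miR-671-5p (0.51). The abundant miR-425-5p had 1679, 1318 and 1739 CPM in bufotalin and 4927, 10419.9 and 9095 CPM in control libraries. miR-1268a was closest to miR-425-5p (0.78), miR-197-3p (0.79) and miR-7974 (0.79). miR-1248 was closest to miR-3940-3p (0.16), miR-1291 (0.21) and let-7c-5p (0.25); like miR-1248, miR-1291 overlaps a snoRNA gene, SNORA2C. The features were ranked over the same 6 libraries, so these distances describe and do not test a relation.

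Other small RNA entries that the literature lists as possible pieces of structured RNAs or repeats were also counted. Over all 477 features tested 5.66% were called, so nothing is read from the share of these entries. Of 71 such entries 33 were in the table and 13 were tested; 1 was called higher and 0 lower by edgeR (2 lower at an unadjusted p under 0.05, 0 by DESeq2), and their median log2 fold change was -0.05, with 6 above 0 and 7 below. The one called, miR-11401, had 10.7, 22.5 and 13.0 CPM in bufotalin and 4.53, 2.43 and 1.47 CPM in control libraries (log2 fold change 2.53, SE 0.52, edgeR adjusted p = 0.0158). With 19, 5 and 3 counts in control libraries, miR-11401 passed the filter on low counts only through the bufotalin group. Its p-value is therefore not independent evidence. The most abundant, miR-1260b, had 147, 190.4 and 97.0 CPM in bufotalin and 203, 542 and 236 CPM in control libraries. Its log2 fold change of -0.97 (SE 0.35) did not pass (edgeR adjusted p = 0.113), and like miR-4454 it was highest in control replicate 2. The next by level, miR-664a-3p, miR-7704, miR-1285-3p, miR-1291 and miR-1306-5p, had log2 fold changes of 0.33, 0.14, 0.19, 0.12 and -0.46, none past the test.

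Entries whose precursors overlap a RefSeq small structured RNA gene were also counted, a list made after the data were seen. There were 11 besides the 7, of which 6 were tested and 0 were called by edgeR (1 at an unadjusted p under 0.05 and 1 by DESeq2, miR-1843), with a median log2 fold change of 0.09. With 5.66% of all features called, 0 of 6 sets these entries apart from no other features. The precursor of miR-1843, which shares 83 bases with SCARNA3, gave the largest fold change: 24.6, 21.0 and 22.1 CPM in bufotalin and 14.5, 9.25 and 8.36 CPM in control libraries, without overlap (1.2, SE 0.39, edgeR adjusted p = 0.0831).

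Total RNA gave a measure that the choice of entries did not use. The mRNA table, however, holds only genes that the authors had selected as different on these samples. A gene listed there was thus likely to be called, and its p-value is not independent evidence. EIF4A2 (chr3:186783205-186789897 in the deposited table, GRCh38), the gene that holds the miR-1248 precursor, was lower in bufotalin tumours: it had 102, 120.2 and 101 FPKM (fragments scaled by transcript length and library size) in bufotalin and 208, 178 and 165 FPKM in control libraries. Every bufotalin library lay below every control library. The difference was -0.76 on the log2(FPKM + 1) scale (SE 0.13, limma adjusted p = 0.000433), and it stayed between -1.06 and -0.57 and was called under all 12 alternatives. miR-1248 itself, at 0.07, gave no such difference in the small RNA libraries; the 2 assays were scaled separately, and the difference between the 2 changes was not tested. TRRAP, ZNF653, SNORA81, SCARNA28 and the U2 snRNA gene RNU2-1 are not listed in the mRNA or lncRNA tables. As both hold only selected features, this absence does not show that these genes were unchanged.

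**Figure D5:**
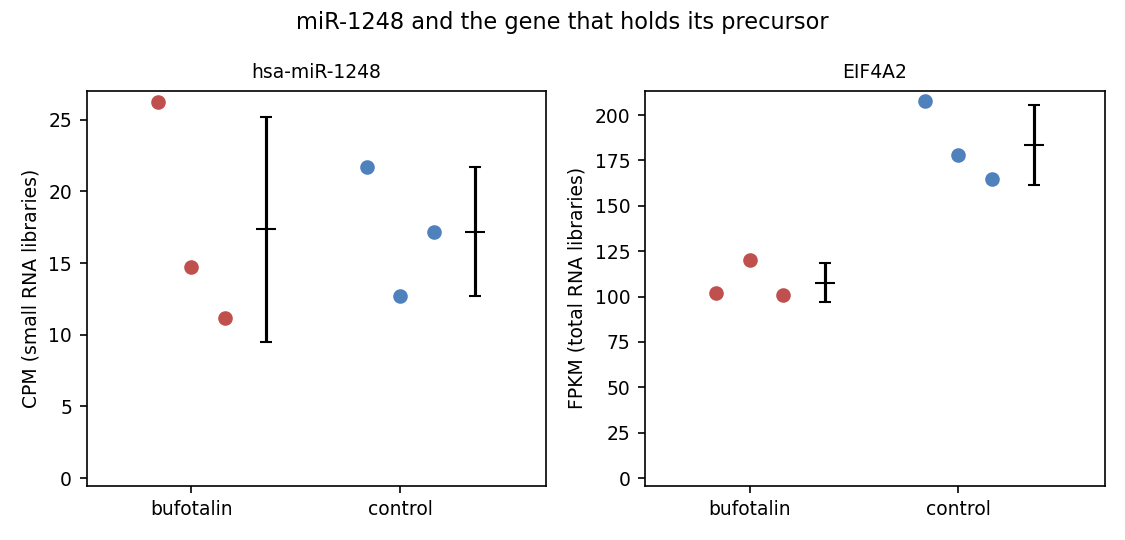
miR-1248 in CPM of the small RNA libraries (left) and EIF4A2 in FPKM of the total RNA libraries (right), for 3 bufotalin and 3 control libraries each; points are libraries and bars mean ± SD. EIF4A2 is 101 to 120.2 FPKM in bufotalin and 165 to 208 FPKM in control, while the miR-1248 groups overlap.

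The mRNA of proteins that make, cut or degrade structured RNAs was taken from gene lists. Most listed genes were absent from the mRNA table and could not be tested. It held 8 of 23 listed U2 snRNA and Sm genes, 10 of 37 of snRNA maturation and 7 of 18 of snoRNA-binding proteins. For tRNA processing it held 10 of 35, and for RNA polymerase III 8 of 25. For miRNA processing it held 5 of 21, and for tailing and decay 7 of 30. The mRNA table holds 4988 genes that the authors had selected on these samples, so 93.2% of the 4273 genes tested were called (44.3% higher and 48.8% lower in bufotalin), and the direction of a list is not independent evidence. The median of all genes was 0.13 on the log2(FPKM + 1) scale. Scaling libraries to equal medians moved it to 0.31. It turned to -0.14 with no FPKM minimum. Without bufotalin replicates 1, 2 and 3 of the total RNA libraries it was -0.17, -0.06 and -0.27. The remaining alternatives left it at 0.05 to 0.18.

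Proteins that bind the U2 snRNA and its Sm ring were mostly higher: 7 of 8 tested genes were called higher and the other did not pass, with a median of 0.72. PHF5A, a subunit of the U2-associated SF3b complex, had 47.8, 47.7 and 40.9 FPKM in bufotalin and 21.9, 24.2 and 19.3 FPKM in control libraries (1.03, SE 0.12, limma adjusted p = 4.44e-05). SNRPD3 (0.89) and SNRPB (0.58), which encode Sm core proteins, and SF3B4 (0.86), of SF3b, also rose. Without bufotalin replicate 2 of the total RNA libraries 6 of 8 were called, and under quantile normalization 5, with SNRPB at 0.25 (limma adjusted p = 0.11).

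Genes for transcription and maturation of snRNAs went both ways, with 4 of 10 called higher and 5 lower. The median was -0.13, and 0.04 under equal medians. INTS8, a subunit of the Integrator complex that cleaves snRNA 3′ ends, had 7.16, 6.01 and 8.62 FPKM in bufotalin and 20.3, 22.0 and 23.0 FPKM in control libraries (-1.47, SE 0.13, limma adjusted p = 1e-05). INTS3 (-1.43) and INTS13 (-0.79), also of Integrator, and GEMIN8 (-1.55), of the SMN complex that loads Sm proteins, fell as well.

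Of 18 listed genes of snoRNA-binding proteins only 7 could be tested, and all 7 were called higher, with a median of 0.54. GAR1, a protein of the H/ACA class to which SNORA81 belongs, had 31.1, 36.9 and 35.7 FPKM in bufotalin and 20.6, 19.99 and 13.3 FPKM in control libraries (0.93, SE 0.17, limma adjusted p = 0.000518). DKC1 (0.54), the pseudouridine synthase of the same class, and NOP56 (0.66) and NOP58 (0.51), of the C/D class, also rose. Under quantile normalization 4 of 7 were called higher, and DKC1 was at 0.24 (limma adjusted p = 0.0994).

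tRNA processing and cleavage genes were split, with 4 of 9 tested called higher and 4 lower; the median of 0.26 turned to -0.04 under quantile normalization and to -0.21 with no FPKM minimum. ELAC1, a tRNA 3′ processing enzyme, had 0.501, 0.0854 and 0.451 FPKM in bufotalin and 1.25, 1.91 and 1.91 FPKM in control libraries and fell (-1.0, SE 0.16, limma adjusted p = 0.000218; -0.35 under quantile normalization, limma adjusted p = 0.11), while RPP25 (0.61) and RPP30 (0.48), protein subunits of RNase P, rose.

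RNA polymerase III, which transcribes tRNA genes, had 6 of 8 tested genes called higher and 2 lower, with a median of 0.48. The list holds 25 genes. The 2 that fell were the alternative subunits POLR3G (3.27, 3.8 and 3.04 FPKM in bufotalin; 10.9, 9.82 and 10.5 FPKM in control; -1.39, SE 0.11, limma adjusted p = 5.53e-06) and POLR3GL (-1.57). BRF2 (0.77), a factor of initiation at snRNA-type promoters, and POLR3A (0.74), the largest subunit, rose. Without bufotalin replicate 2 or replicate 3 of the total RNA libraries 4 of 8 were called higher.

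Of 21 listed genes of miRNA processing and Argonaute proteins only 5 could be tested, and all 5 were called higher, with a median of 0.53. AGO2, the Argonaute protein that cuts target RNAs, had 30.5, 35.5 and 48.2 FPKM in bufotalin and 21.3, 20.4 and 24.4 FPKM in control libraries (0.74, SE 0.16, limma adjusted p = 0.00195). TARBP2 (0.56), a Dicer partner, and DDX5 (0.53) and KHSRP (0.49), which assist miRNA maturation, rose too. Under quantile normalization 3 of 5 were called higher, with DDX5 at 0.29 (limma adjusted p = 0.053) and KHSRP at 0.25 (limma adjusted p = 0.0884).

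Of 30 listed genes of small RNA tailing and decay only 7 could be tested, and all 7 were called higher, with a median of 0.45. TUT7, which adds uridines to RNA 3′ ends, had 12.9, 14.1 and 18.2 FPKM in bufotalin and 10.4, 9.07 and 9.38 FPKM in control libraries (0.59, SE 0.14, limma adjusted p = 0.00268). TENT4A (0.50), a poly(A) polymerase, EXOSC4 (0.49), a subunit of the RNA exosome, and ZCCHC8 (0.42), of the nuclear exosome targeting complex, rose as well. Without bufotalin replicate 2 of the total RNA libraries 5 of 7 were called.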

How the data were processed

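The authors deposited read counts per small RNA feature with TPM values beside them; the deposited TPM equalled the count over the library total (largest difference 4.37e-10), so counts were used and CPM computed from them. For total RNA the authors deposited FPKM per mRNA gene and per lncRNA transcript, only for features selected as different. The submitters' processing notes name HISAT2 2.0.5, DESeq2 1.20.0, featureCounts 1.5.0-p3, CASAVA 1.8 and fastp; which made which values, and how small RNA reads were assigned, is not given in the sources used here. How reads matching several places were counted could change every entry described.

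Counts were tested with edgeR 4.0.16 (quasi-likelihood F test, robust; TMM; filterByExpr by group), and FPKM with limma 3.58.1 (trend, robust) on log2(FPKM + 1), keeping genes that averaged 0.5 FPKM or more. Both tests were two-sided; p-values were adjusted by Benjamini-Hochberg over all features, the threshold was 0.05, and both were tested on simulated data. No lncRNA transcript overlaps an entry, so lncRNA values were not tested. Hairpins were folded with ViennaRNA 2.7.2. Sequences and overlaps came from RefSeq tables of GRCh38.p14; 1231 of 1380 human names matched a sequence, and 4968 of 4988 mRNA identifiers matched. Total RNA depth is unknown. Named list genes were up to 4 per list by smallest p among called genes that averaged 1 FPKM or more; some genes are not reported here. The entries, lists and tests were chosen with earlier results of these data known. R 4.3.3 with DESeq2 1.42.0 and Python 3.11.15 with scipy 1.17.1, pandas 2.3.3, matplotlib 3.10.9 and numpy 2.4.6 were used.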

Additional observations from a re-analysis of the deposited data

How the results depend on the processing

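Under all alternatives that were run, the mRNA genes named, EIF4A2 included, kept their direction. The number of small RNA features called, 27, was 62 with DESeq2's own test and 6 to 40 with 1 library left out (13, 8 and 6 without bufotalin replicates 1, 2 and 3). Of the 7 entries, 6 were called; 3 of the 5 that passed were called with a minimum mean of 10 CPM, where miR-3609 and miR-1268a were not tested, and 4 to 6 with 1 library left out. With the replicate number as a block, 3 small RNA features were called and 2 of the 7 entries, miR-1246 and miR-7974. The labels do not state a pairing. Deviations of same-numbered libraries correlated at 0.16, 0.04 and 0.40 for small RNA and -0.02, 0.03 and -0.05 for total RNA. Small RNA bufotalin replicates 1 and 3 correlated best with the control of the same number, and replicate 2 with control replicate 1 (0.22). The main tests left the libraries unpaired, and whether the numbers pair them is not known. With the block 3957 mRNA genes were called, against 3981. The lncRNA alternatives were not run, since no transcript overlaps an entry. The cause of these differences was not tested. Entries with 0 or 1 count in a group are limited by depth.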
